A study of Mus musculus with 12 samples.

Results

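The genes described here are 39 mouse genes of DNA replication and of the passage from G1 to S phase, listed by name and grouped here by role: origin licensing (10 genes), helicase activation (6), primase and polymerases (7), clamp, clamp loader and strand joining (7), nucleotide supply (4), chromatin behind the fork (2) and G1/S regulators (3). This list and the other gene lists were chosen with earlier results of these data known. Their counts, set beside those of all genes, are therefore a description and not a test of the list. All 39 had a probe on both Agilent array designs of the series, among 20284 genes with a symbol on one design and 23462 on the other. RNA was measured in microglia, the resident macrophages of the brain, taken from the brains of male mice aged 8 weeks by magnetic sorting with a CX3CR1 enrichment kit. The 6 groups, of 2 arrays each, were wild type mice, ZEB1-overexpression mice and ZEB1 knock-down mice before tMCAO (listed as control) and the same genotypes after it. tMCAO is transient middle cerebral artery occlusion, a stroke model in which a brain artery is blocked and reopened, and ZEB1 is a zinc-finger transcription factor best known as a repressor of epithelial genes. The labels call the overexpression mice zeb1-tg and name no promoter, Cre driver, knock-down agent or time after tMCAO. They also do not say whether 2 arrays of a group came from separate mice, so every p-value here measures the spread between these arrays, which may be technical.

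Before a cell copies its DNA, the origin recognition complex, CDC6 and CDT1 load the ring-shaped MCM helicase onto replication origins in G1. CDC45 and the GINS proteins then join the helicase and switch it on, polymerase alpha with primase starts each strand, polymerases epsilon and delta extend it, and PCNA, loaded by replication factor C, holds the polymerase on the template. Cyclin E and the transcription factor E2F1 act at the entry into S phase, and many of the genes listed here are known targets of E2F factors. Adult microglia divide rarely, and division after ischaemia is well described.

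Each value below is a level on the log2 scale: the probe's processed signal relative to the 75th percentile of its own array, so that 0 is the level of that percentile. Levels of different probes are not compared with each other. Wild type and ZEB1-overexpression arrays after tMCAO were on a slide of 4 arrays, and the other 4 groups were on a slide of 8 arrays of another design, so only 5 comparisons lie within a slide. The 75th percentile was an intensity of 1078 to 1515 on the 4-array slide and 2566 to 3702 on the 8-array slide, and 60.4% to 73.9% of probes were well above background. The scanner software marked 1.03% to 23.7% of spots on an array as non-uniform or as outliers, and these spots were left out of the fits. On the knock-down arrays these were 20.8% and 23.5% after tMCAO against 1.87% and 1.03% before it. Before tMCAO they were 23.7% and 18.2% on the overexpression arrays and 3.28% and 1.26% on the wild type arrays. Of the 39 members, 39 passed the filter on dim probes on the 8-array slide and 38 on the 4-array slide, where Ccne2 did not. Replicates correlated at r = 0.975 to 0.990 over the brightest probe of each gene that passed the filter. The targeted gene, Zeb1, did not pass the threshold in any comparison on these probes: with every spot kept it was 0.26 log2 higher in ZEB1-overexpression than in wild type arrays before tMCAO (limma adjusted p = 0.771), 0.13 higher in ZEB1 knock-down than in wild type arrays (adjusted p = 0.984) and -0.02 in overexpression relative to wild type arrays after tMCAO (adjusted p = 0.974). Groups are therefore named as the libraries are labelled. Microglia markers were present as labelled: all 12 on the list (Cx3cr1, P2ry12 and Tmem119 first) were well above background on every array. So were all 8 markers each of astrocytes and of neurons and all 10 of oligodendrocytes.

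In ZEB1 knock-down microglia, replication genes were higher after tMCAO than before it, in every role group. Of the 30 members with an unmarked spot in both groups, 15 rose and 0 fell (limma, Benjamini-Hochberg adjusted p under 0.05 over 24646 genes), and all 30 differences were above 0. Of these 30, 17 had 2 unmarked arrays in both groups and 13 had 1 array in a group. Of the 15 calls, 5 rest on 1 array after tMCAO (Mcm3, Uhrf1, Gins2, Rrm1 and Pole2), which the fit assumes to vary like the other arrays. At an unadjusted p under 0.05 there were 24 members, against 37.1% of all genes. Over all genes tested, 11.1% were called higher, 7.03% lower and 18.1% in either direction, and 53.0% of differences were above 0. The median difference was 0.97 log2 over the 30 members and 0.04 over all genes tested. The increases ranged from 0.79 log2 for E2f1 to 5.95 for Tk1, which is 61.9-fold. The split of calls over all genes depends on the scaling: 61.2% of the 4460 calls were higher, against 44.6% of 4607 with quantile normalization, which moved the median of all genes to -0.10, and 78.6% of 7446 with normexp background correction, which moved it to 0.21. The members' count was 14 and 24 under these, against 18.7% and 30.2% of all genes called, and 0 members fell.

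**Figure D1:**
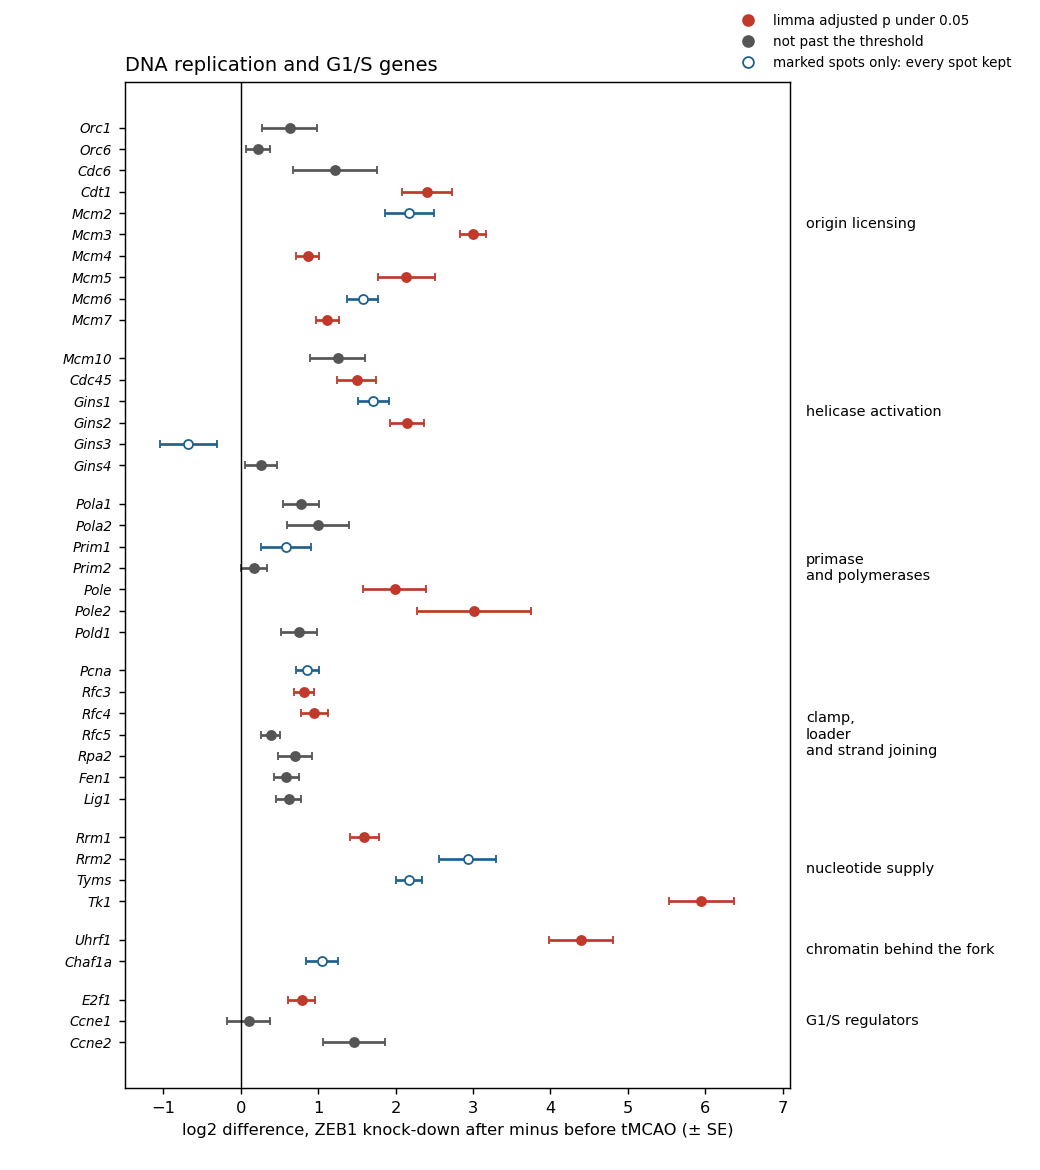
Log2 difference (horizontal axis) between ZEB1 knock-down arrays after and before tMCAO for each of the 39 members, by role, with the standard error of the fit. Red points are the 15 members past an adjusted p of 0.05 and grey points the 15 tested members that are not; open points are the 9 members with every spot of a group marked, fitted with marked spots kept. Gins3 is the only point below 0.

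The promoters of members that rose are shown because replication genes are textbook E2F targets. RefSeq promoters (assembly GRCm38.p6, 250 bases before to 50 after the start) were at hand for 32 of the 39 members. They were searched on both strands for TTTCCCGC and TTTGGCGC, which are 2 spellings of the E2F consensus. One or the other was found in the promoters of 11 of the 32 members (34.4%), in 486 of 27025 genes overall (1.80%) and in 0 of 17 mitosis genes. Of the 15 members that rose, 12 had a promoter in the table and 6 of these held a match. Each line gives 100 bases, 5′ to 3′ on the gene's strand, with the match in capitals (on the minus strand of the gene it reads GCGGGAAA or GCGCCAAA):
Mcm3, chr1:20820263-20820362, minus strand: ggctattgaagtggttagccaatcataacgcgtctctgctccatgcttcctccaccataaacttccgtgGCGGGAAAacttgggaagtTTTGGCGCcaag
Mcm7, chr5:138171995-138172094, minus strand: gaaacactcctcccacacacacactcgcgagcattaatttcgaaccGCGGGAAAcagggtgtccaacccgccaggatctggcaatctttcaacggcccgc
Cdt1, chr8:122567965-122568064, plus strand: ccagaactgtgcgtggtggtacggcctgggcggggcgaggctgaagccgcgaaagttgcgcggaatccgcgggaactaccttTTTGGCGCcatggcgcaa
Rfc3, chr5:151651159-151651258, minus strand: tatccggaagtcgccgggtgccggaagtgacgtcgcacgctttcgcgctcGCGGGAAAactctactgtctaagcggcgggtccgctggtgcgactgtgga
Mcm5, chr8:75109314-75109413, plus strand: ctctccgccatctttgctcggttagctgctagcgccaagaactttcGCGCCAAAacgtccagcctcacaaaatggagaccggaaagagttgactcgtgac
Pole2, chr12:69228141-69228240, minus strand: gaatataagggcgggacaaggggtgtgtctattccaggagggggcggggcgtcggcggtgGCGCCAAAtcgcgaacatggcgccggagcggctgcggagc
The Mcm3 window held both spellings, at 19 and 38 bases after the start. The other 5 matches lay at -165 (Mcm7), 32 (Cdt1), 0 (Rfc3), -149 (Mcm5) and 10 (Pole2) bases from it. The other members with a match were Cdc6, Mcm6, Gins3, Pola1 and Pold1. CCAAT, the NF-Y box, was found on either strand in 59.4% of members, 41.1% of all genes and 88.2% of the mitosis genes. TTTGAA, the core of the cell cycle homology region of G2/M genes, was found in 12.5% of members, 20.2% of all genes and 70.6% of the mitosis genes. The letters are a description of these windows; binding was not measured.

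Among the licensing genes, 5 of the 8 tested rose. Mcm3, a helicase subunit, stood at 0.43 and -0.43 after tMCAO and at -2.51 and -2.61 before it; the second array after tMCAO had a marked spot, and the difference without it was 3.0 ± 0.2 log2 (SE; limma adjusted p = 0.003). Cdt1, the loading factor whose match sits just before the end of its window, read 0.73 and -0.21 after tMCAO against -2.21 and -2.08 before it. The 2 groups of Cdt1 arrays were more than 1 log2 apart at their nearest, and the difference was 2.41 ± 0.32 (adjusted p = 0.009). Mcm5 read 0.19 and -0.85 against -2.75 and -2.19 (2.14 ± 0.36, adjusted p = 0.016). Mcm7 read 1.23 and 1.12 against 0.03 and 0.08 (1.12 ± 0.15, adjusted p = 0.009), and Mcm4 read 1.10 and 0.88 against 0.10 and 0.16 (0.86 ± 0.15, adjusted p = 0.017). The remaining helicase subunits, Mcm2 and Mcm6, had only marked spots after tMCAO; with every spot kept they were 2.18 ± 0.32 and 1.57 ± 0.20 higher (adjusted p = 0.011 and 0.007). The origin recognition subunits did not pass: Orc1, whose arrays overlapped, differed by 0.63 ± 0.35 and Orc6 by 0.22 ± 0.15. Cdc6, the other loading factor, read -2.18 and -3.95 after tMCAO against -4.22 and -4.34 before it (1.21 ± 0.54, adjusted p = 0.163).

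Of the genes that switch the helicase on, 2 of 4 tested rose. Gins2 stood at 1.89 and, on a marked spot, 1.39 after tMCAO and at -0.33 and -0.19 before it, a difference of 2.14 ± 0.22 without the marked spot (limma adjusted p = 0.008). Cdc45 read -2.51 and -2.58 against -3.95 and -4.12 (1.49 ± 0.26, adjusted p = 0.017). Its replicates after tMCAO were 0.07 apart, much less than the difference. Mcm10, which helps start the fork, differed by 1.25 ± 0.36 (adjusted p = 0.068) and Gins4 by 0.26 ± 0.21. Gins1 and Gins3 had only marked spots after tMCAO. With every spot kept Gins1 was 1.71 ± 0.20 higher (adjusted p = 0.006), and Gins3 was the 1 member of 39 with a negative difference, -0.68 ± 0.37 (adjusted p = 0.244).

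The polymerase genes rose in part. Pole, the catalytic subunit of polymerase epsilon, read -1.51 and -2.50 after tMCAO against -3.83 and -4.16 before it (1.99 ± 0.41, limma adjusted p = 0.027). Pole2, its accessory subunit, was at -3.75 on its 1 unmarked array after tMCAO and at -6.34 and -7.18 before it, where the second reading was not well above background; the difference was 3.01 ± 0.74 (limma adjusted p = 0.0495). It was called in 6 of the 13 alternatives that gave it a value, where its adjusted p reached 0.169. Of 6 tested genes of this group these 2 rose. The polymerase alpha subunits Pola1 and Pola2 differed by 0.77 and 1.0, the catalytic subunit of polymerase delta, Pold1, by 0.75, and the primase subunit Prim2 by 0.17. The other primase subunit, Prim1, had only marked spots after tMCAO, overlapped the arrays before it and differed by 0.58 ± 0.32 (adjusted p = 0.253) with every spot kept.

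Among the clamp, loader and strand joining genes 2 of 6 tested rose, by less than 1 log2. Rfc3 read 1.30 and 1.11 after tMCAO against 0.38 and 0.40 before it (0.81 ± 0.13, limma adjusted p = 0.013), and Rfc4 read 1.12 and 1.38 against 0.45 and 0.15 (0.95 ± 0.17, adjusted p = 0.019). Both encode small subunits of the clamp loader. In all 7 genes both arrays after tMCAO lay above both arrays before it with every spot kept, as they did for 33.6% of all genes. The 4 tested genes that did not pass were Lig1, the ligase that joins Okazaki fragments (0.62), Rpa2, a subunit of the single-strand binding protein (0.70), Fen1, the flap nuclease (0.58), and Rfc5 (0.38). Pcna, the clamp itself, had only marked spots after tMCAO, at 3.32 and 3.22 against 2.49 and 2.33, and was 0.86 ± 0.15 higher with every spot kept (adjusted p = 0.016).

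The nucleotide supply genes included Tk1, the member with the largest difference of the 30 tested. Tk1, thymidine kinase of the salvage pathway, read 1.46 and 0.52 after tMCAO and -4.97 and -4.95 before it, a difference of 5.95 ± 0.42 (limma adjusted p = 0.003). Its lowest reading among the other arrays before tMCAO was -5.21 and its highest -3.86, so the arrays after tMCAO stood more than 4 log2 above all 6. Rrm1, the large subunit of ribonucleotide reductase, read 0.76 and, on a marked spot, -0.11 against -0.81 and -0.85 (1.60 ± 0.18 without the marked spot, adjusted p = 0.015). Its S-phase partner Rrm2 and thymidylate synthase, Tyms, had only marked spots after tMCAO and were 2.93 ± 0.37 and 2.17 ± 0.17 higher with every spot kept (adjusted p = 0.007 and 0.003). All 4 genes of this group were past the threshold in that fit.

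Uhrf1, which brings the maintenance DNA methyltransferase to newly copied DNA, read 0.62 and, on a marked spot, -0.52 after tMCAO against -3.84 and -3.70 before it. The difference was 4.40 ± 0.41 without the marked spot (limma adjusted p = 0.006) and 3.82 ± 0.45 with it. Chaf1a, a subunit of the chromatin assembly factor that follows the fork, had only marked spots after tMCAO and was 1.04 ± 0.20 higher in the fit that kept them (adjusted p = 0.023). Of the 3 regulators, E2f1 rose, from -0.89 and -0.67 to 0.20 and -0.19 (0.79 ± 0.18, adjusted p = 0.032). The cyclin E genes did not pass: Ccne1 overlapped between the groups and differed by 0.10 ± 0.28, and Ccne2, which was not well above background on 1 of the arrays before tMCAO, by 1.46 ± 0.40 on 1 array after it (adjusted p = 0.078).

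With every spot kept, all 39 members could be fitted, 24 passed the threshold and 38 had a positive difference. In that fit 16.6% of 30525 genes passed, in either direction. The 9 further calls were Gins1, Mcm2, Mcm6, Rrm2, Tyms, Pcna and Chaf1a, which had no unmarked spot after tMCAO, and Lig1 and Mcm10. In that set, 33 of 39 members had both arrays after tMCAO above both arrays before it, and Gins3 had both below; over all genes, 33.6% were above. Where several probes of a member passed the filter, as for 14 members, every probe had a positive difference. The sizes varied: the brighter and dimmer probes of Cdc6 gave 1.21 and 3.61, and those of Mcm7 gave 1.12 and 0.43.

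**Figure D2:**
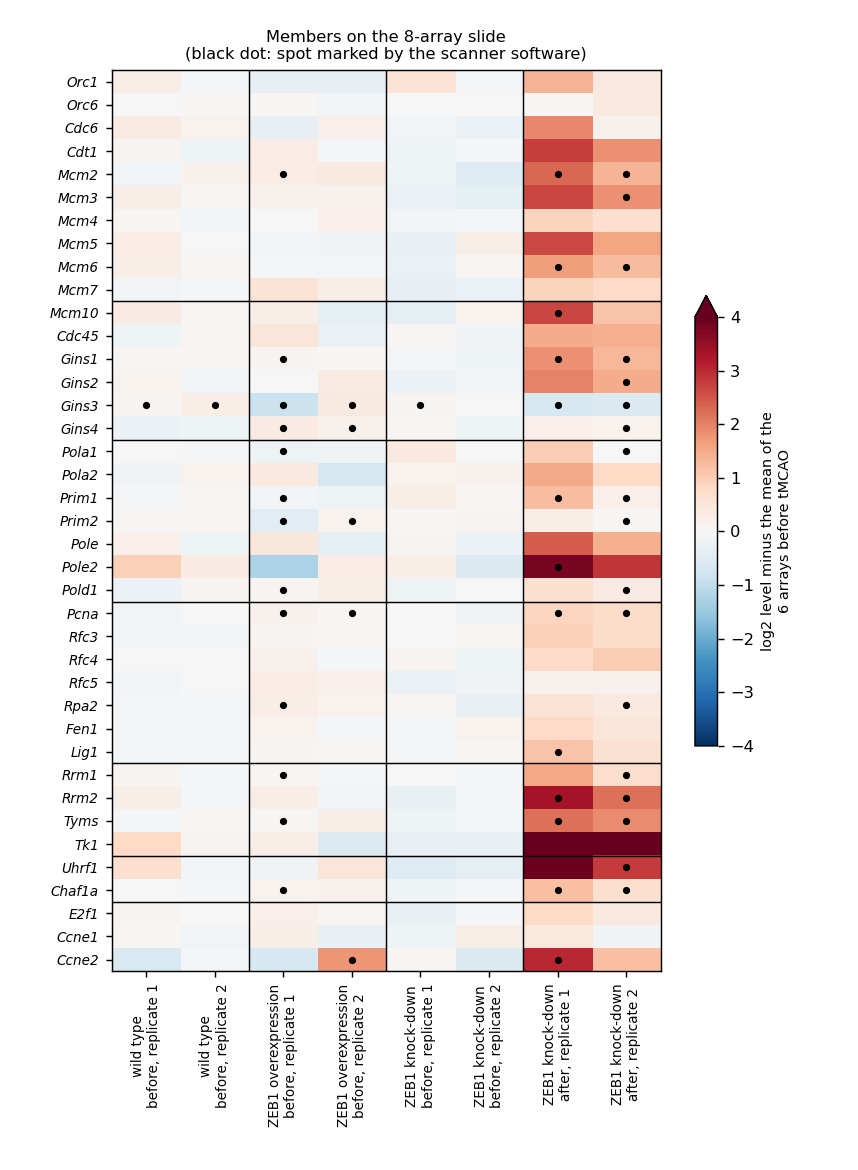
Log2 level of each member (rows, by role) on each array of the 8-array slide (columns), relative to its mean over the 6 arrays before tMCAO, in log2 units; black dots are spots marked by the scanner software. The 2 ZEB1 knock-down arrays after tMCAO stand above the 6 arrays before it for 28 of the 39 members, and the first of them is the darker column.

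The 6 arrays before tMCAO served as a wider reference. Both ZEB1 knock-down arrays after tMCAO lay above all 6 for 28 of 39 members (71.8%), against 14.7% of all genes, and below all 6 for 0 members, against 16.1% of all genes. Groups also differed in slide position. The arrays after tMCAO shared a slide row with the wild type arrays and a slide side with the ZEB1-overexpression arrays, and shared neither with the knock-down arrays before tMCAO. The median member difference was 0.95 log2 against the wild type arrays, with 34 of 39 members not overlapping (23.7% of all genes), and 1.10 against the overexpression arrays, with 32 not overlapping (25.5% of all genes). Against the knock-down arrays it was 1.04 with every spot kept. In the knock-down comparison, slide row and side changed together with tMCAO, so position and tMCAO cannot be told apart there. The wild type and overexpression arrays also differ in genotype from the knock-down arrays, so these levels do not separate them either. The part of slide position was not tested.

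The 2 knock-down arrays after tMCAO were not alike in these genes. The array labelled replicate 1 in its scanner file was higher in 35 of 39 members, with a median gap of 0.53 log2, against -0.02 over all genes; in the other 5 groups the median gap lay between -0.02 and 0.13. The median member level was 0.45 on replicate 1 and -0.21 on replicate 2, and -0.96 to -0.85 on the 6 arrays before tMCAO. The deposited value tables carry these 2 arrays under exchanged replicate numbers, so which is the first is not settled, and no group value depends on it. Without replicate 1 after tMCAO, 6 members were called (10.5% of all genes) and the median difference was 0.75; without replicate 2, 14 were called (16.4% of all genes). Leaving out either knock-down array before tMCAO left 4 calls, while 4.22% and 3.36% of all genes were called. Fitted on the 2 groups alone, 9 members were called, and 9.37% of all genes. Among the processing alternatives with all arrays, Tk1 was called in each of the 10 that gave it a value, and Mcm3, Uhrf1 and Gins2 in each of 11. When each array was left out, the Tk1 difference ran from 5.48 to 6.43. For Mcm3, Uhrf1 and Gins2 the only unmarked array after tMCAO was replicate 1. Leaving it out gave them no value, so their dependence on that array could not be checked in this way.

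Calls among the neighbouring pathway lists were all higher after tMCAO, though not all differences were above 0. Of 29 tested replication factors outside the member list, 10 rose and 0 fell, 24 differences were above 0, and the median was 0.40: those that rose included Dbf4, the activator of the CDC7 kinase (2.65), and the histone chaperone genes Asf1b (2.76) and Chaf1b (2.10). Of 20 tested G1 cyclins, kinases, inhibitors and pocket proteins, 11 rose and 0 fell, with a median of 0.73. Those that rose included Cdk2, the partner of cyclin E, by 2.95, Ccna2 (cyclin A) by 2.29, Cdk6 by 2.12, and the E2F family genes E2f3 and E2f8 by 1.38 and 3.11. The other way, 5 of the 20 differences were below 0, among them Ccnd2 (-0.17), Cdkn1b (-0.32) and E2f7 (-0.16). None of these passed, and they were picked after their values were seen. Over all genes tested, 53.0% of differences were above 0. Before tMCAO, 1 of the 2 Cdk2 readings was not well above background. Of 4 tested genes of nucleotide supply outside S phase or of nucleotide breakdown, 1 rose, the breakdown gene Dctpp1, a nucleotide pyrophosphatase (0.66). All 18 tested mitosis genes rose, with a median of 3.38; those with the smallest p were Birc5 (3.92), Ccnb2 (4.54), Cenpa (2.79), Tpx2 (3.22) and Kif20a (3.63), all with a limma adjusted p of 0.005 or below. Like the members, the mitosis genes were higher on replicate 1 than on replicate 2, by a median of 1.08.

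Markers of other cells differed in the knock-down comparison as well, in several lists in 1 gene only. The counts of calls below stand beside 11.1% of all genes called higher and 7.03% called lower. Summed signals keep every spot, while the counts leave marked spots out. In bulk RNA, more cells of a type and more RNA per cell cannot be told apart. The summed signal of 10 monocyte and border macrophage markers, in multiples of the array's 75th percentile, was 23.6 and 24.3 after tMCAO against 9.43 and 9.63 before it, and 5 of 9 tested rose: Ccr2 by 3.23, Chil3 by 3.23, Pf4 by 2.14, Lyve1 by 1.55 and Cd163 by 1.03. These marker genes, and those named next, are the ones past the threshold and were picked after their values were seen. The sum of 12 microglia markers was 64.3 and 57.1 against 39.8 and 40.7, with 3 of 7 higher (Cx3cr1 by 1.41, Trem2 by 1.49, Aif1 by 1.17). Of these 12, 6 and 8 were marked on the arrays after tMCAO, against 2 and 0 before it. Of the 8 neuron markers below, 5 and 5 were marked, against 1 and 1. Siglech, another microglia marker, differed the other way, by -1.60 ± 0.45 on 1 array after tMCAO, and did not pass (limma adjusted p = 0.081). The sum of 12 endothelial and mural markers was 32.3 and 33.7 against 21.7 and 22.3, with 3 of 9 higher, and that of 10 oligodendrocyte markers 53.3 and 52.1 against 37.1 and 37.6, with 1 of 4 higher. That of 8 astrocyte markers was 44.9 and 48.2 against 35.9 and 35.3, with 1 of 6 higher. The neuron sum was lower, at 39.7 and 45.0 against 51.9 and 51.8, and 1 of 3 fell. For 9 neutrophil markers the sum was 11.2 and 9.23 against 7.11 and 6.27, and 0 of 6 tested passed. Lymphocyte markers summed to 0.84 and 0.54 against 0.71 and 0.82, with 1 higher and 2 lower of 8, and Cd3e, the T cell receptor component, was not well above background on either array after tMCAO. Erythroid markers summed to 9.56 and 6.80 against 11.9 and 17.7, with 0 higher and 3 lower of 7. The part of these cell types in the replication gene result was not tested.

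Before tMCAO, no member was past the threshold in any genotype comparison. ZEB1-overexpression against wild type gave 0 calls among 35 tested members, as among all genes (0% of 25162), with 2 members at an unadjusted p under 0.05 (11.6% of all genes). The median member difference was 0.04. The member with the smallest p was Mcm7, at 0.89 and 0.57 in overexpression and 0.24 and 0.26 in wild type arrays; the groups did not overlap, and the difference was 0.48 ± 0.15 (limma adjusted p = 0.348). Rfc5 was next, at 0.84 and 0.75 against 0.41 and 0.55 (0.31 ± 0.12, adjusted p = 0.424). For 25 of the 35 members the 95% interval of the difference lay within 1 log2 on either side of 0.

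ZEB1 knock-down against wild type before tMCAO gave 0 calls among 38 tested members and 0% of 30293 genes, and 1 member had an unadjusted p under 0.05 (8.76% of all genes). The median was -0.07, as over all genes. That member was Mcm3, at -2.51 and -2.61 in knock-down and -2.03 and -2.21 in wild type arrays, a difference of -0.44 ± 0.14 (limma adjusted p = 0.451). Tk1 stood at -4.97 and -4.95 against -3.86 and -4.56 (-0.75 ± 0.42, adjusted p = 0.728), and Uhrf1 at -3.84 and -3.70 against -2.65 and -3.42 (-0.74 ± 0.34, adjusted p = 0.642). E2f1 stood at -0.89 and -0.67 against -0.48 and -0.55 (-0.26 ± 0.18, adjusted p = 0.789). In 29 of 38 members the interval lay within 1 log2.

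ZEB1-overexpression against knock-down before tMCAO gave 0 calls among 35 tested members and 0% of 25167 genes. At an unadjusted p under 0.05 there were 4 of the 35 members, a smaller share than the 14.8% of all genes. These were Mcm7 (0.67 ± 0.15, limma adjusted p = 0.206), Rfc5 (0.47 ± 0.12, adjusted p = 0.242), Mcm3 (0.48 ± 0.14, adjusted p = 0.265) and, on 1 overexpression array, Mcm2 (0.71). The median was 0.11, and 0.10 over all genes. These 3 comparisons share arrays, so the same Mcm7, Rfc5 and Mcm3 readings enter more than 1 of them. The other pathway lists also gave 0 calls before tMCAO.

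**Figure D3:**
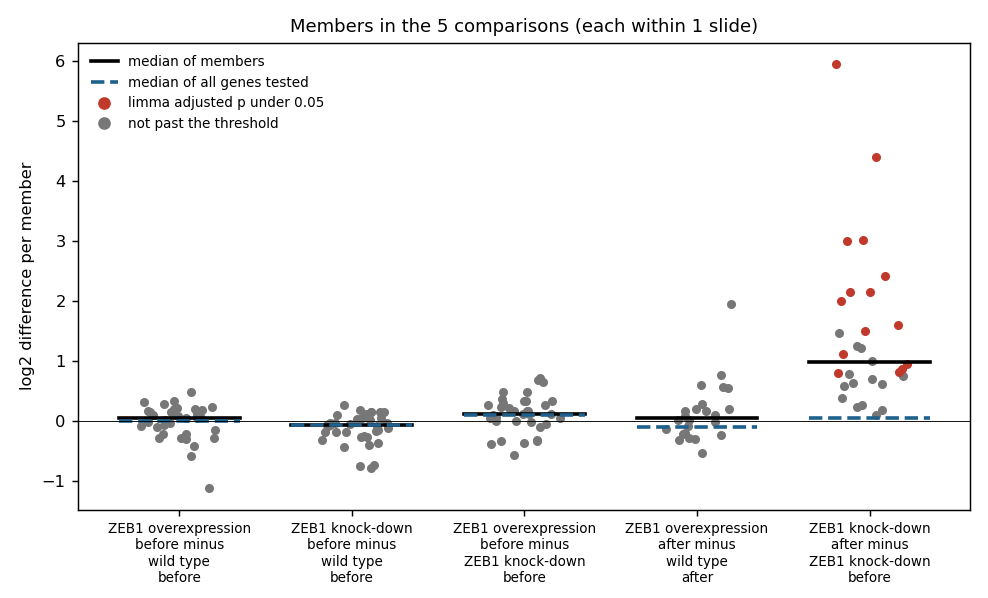
Log2 difference of each tested member (vertical axis, 1 point per gene) in the 5 comparisons within a slide; red points are past an adjusted p of 0.05, black bars are the members' medians and dashed blue bars the medians of all genes tested. The 15 called members are all in the knock-down comparison after against before tMCAO, where the member median is 0.97 and the median of all genes 0.04.

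After tMCAO, ZEB1-overexpression against wild type was tested on the 4-array slide, where marked spots left 24 of the 38 members that passed the filter. None was past the threshold: 0 members were called, against 2.34% of 22072 genes (1.59% higher and 0.748% lower), and 1 had an unadjusted p under 0.05 (21.1% of all genes). That member was Orc1, the largest origin recognition subunit, at -3.47 and -5.33 in overexpression and -5.97 and -6.72 in wild type arrays. Neither wild type reading was well above background, so the size of the difference is not known (limma fit 1.95 ± 0.59 log2, adjusted p = 0.129). With every spot kept its 95% interval ran from 0.56 to 3.33 log2. The mean of the overexpression arrays was 3.74-fold above a floor set for the wild type arrays, which is not a lower limit of the difference. Its 2 overexpression arrays were themselves 1.87 apart, and the 3.74-fold uses their mean. Orc1 passed the filter on dim probes only through the overexpression arrays, so its place as the member with the smallest p is a description. The fitted difference was -0.07 with normexp background correction and ran from 1.01 to 2.88 when an array was left out. The floor was the lowest signal well above background on each wild type array, or the probe's own signal where that was higher.

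Of the other tested members, none reached an unadjusted p under 0.05. Mcm10 stood at -0.14 and -0.08 in overexpression and -1.13 and -0.28 in wild type arrays (0.59 ± 0.33, limma adjusted p = 0.350), Pola1 at -0.45 and -0.84 against -1.22 and -1.18 (0.56 ± 0.26, adjusted p = 0.274), and Rpa2 at -0.53 and -0.43 against -0.08 and -0.24 (-0.32 ± 0.24, adjusted p = 0.486). Tyms, at -5.56 and -4.82 against -5.07 and -4.88, overlapped between the groups, and E2f1 differed by -0.21 ± 0.24 (adjusted p = 0.658). The median was 0.04 over the members and -0.11 over all genes. For 10 of 24 members the 95% interval lay within 1 log2, so larger differences remain possible for the rest. Of the neighbouring lists, Cdkn1a, the p21 inhibitor of cyclin-dependent kinases, was 1.80 ± 0.31 higher on 1 overexpression array, which is assumed to vary like the others (limma adjusted p = 0.049, at the threshold). It was called in 6 of 13 alternatives, where its adjusted p reached 0.255. Dck, deoxycytidine kinase, was 2.14 ± 0.37 higher (adjusted p = 0.037) and was called in 10 of 14, reaching 0.236. Of the other lists, 0 of 26 other replication factors and 0 of 16 mitosis genes passed. With every spot kept, the summed monocyte and border macrophage signal was 36.7 and 36.5 in these overexpression arrays and 27.5 and 23.8 in wild type arrays. The endothelial sum was 27.2 on both against 38.2 and 33.1. Their part in these values was not tested.

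Wild type and overexpression microglia after tMCAO cannot be tested against their arrays before tMCAO, because slide, design and time cannot be told apart there. Levels of the same probe can be set side by side for 26 members whose probe is on both designs. After minus before tMCAO, the median of these 26 was 1.47 log2 in wild type (23 above 0) and 1.44 in ZEB1-overexpression (22 above 0). The median of all 15919 shared probes was itself 0.53 and 0.40, with 64.2% and 61.2% above 0. For the knock-down groups, within 1 slide, the member median was 0.97, with 25 above 0. Over all shared probes it was 0.03, with 52.9% above 0. Pole differed by 4.01 in wild type, 3.61 in overexpression and 1.99 in knock-down, Cdt1 by 3.54, 3.74 and 2.41, and Uhrf1 by 3.33, 3.66 and 3.82. Gins4 went the other way across slides, by -1.55 and -1.51, and by 0.23 in the knock-down groups. So did Gins3, by -1.44 and -0.93 (-0.68 in knock-down), and Orc6, by -0.35 and -0.36 (0.22 in knock-down). Rpa2 was negative in overexpression only, at -0.44.

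**Figure D4:**
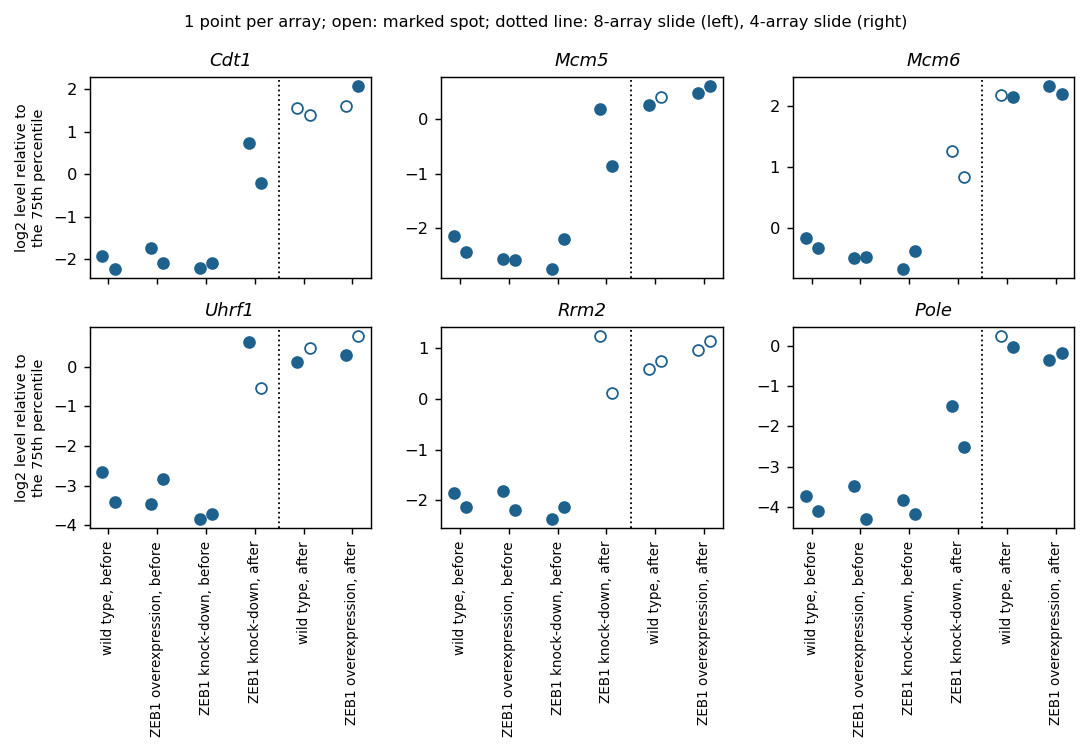
Log2 level relative to the array's 75th percentile (vertical axis, different in each panel) on each of the 12 arrays for 6 members with the same probe on both designs; open points are marked spots and the dotted line separates the 8-array slide from the 4-array slide. Each of the 6 members is lowest on the arrays before tMCAO, and values on either side of the dotted line were not tested against each other. Gins3, Gins4 and Orc6, which went the other way across slides, are not shown.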

How the data were processed

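Processed signal intensities were read from the deposited Agilent one-colour scanner files (Feature Extraction, version 9.1 per the submitters' processing notes and 11.5.1.1 per the file headers), which are background-subtracted per the file headers; the scanner files' marks for non-uniform, outlier and background spots are the deposited other columns. The authors' deposited value tables hold log2 values with the 75th percentile at 0 and served as an alternative. For each array, log2 intensity minus its 75th percentile was taken, the brightest probe per gene was kept, and a gene was kept if 1 group or more had it well above background throughout. All groups of a slide entered 1 limma fit (R 4.3.3, limma 3.58.1; moderated two-sided tests from eBayes) with Benjamini-Hochberg adjustment over all genes and a threshold of 0.05. SE is the moderated standard error. The scripts were tested on simulated data with 100 changed genes of each size. At 1.5 log2, 36% to 46% were recovered in the genotype comparisons before tMCAO and 37% in the knock-down comparison. At 3 log2, 74% to 79% were recovered in these comparisons. In overexpression against wild type after tMCAO, 0% were recovered at 1.5 log2 and 42% at 3 log2. A count of 0 calls therefore does not show that differences of these sizes were absent. Members and lists were chosen with earlier results of these data known. Array values are printed, in each comparison, for the called members with the smallest p (at most 12) and for each role's member with the largest moderated statistic among those with 2 unmarked arrays in both groups. Other members whose arrays are printed (among them Pole2, Cdc6 and Pcna) and the marker genes were chosen after seeing values. Replicate numbers were not taken as pairs: the deviations of same-numbered arrays correlated at 0.04 to 0.17. RefSeq sequences are those of GRCm38.p6. Some genes of the pathway and marker lists are counted but not reported here by name.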

Additional observations from a re-analysis of the deposited data

Results flagged for a closer look

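For 5 of 33 members compared, both ZEB1-overexpression arrays differed from both wild type arrays in one direction before tMCAO and in the opposite direction after it, with every spot kept. That is 15.2% of the members compared, and the same held for 15.3% of 14177 genes compared in this way. This is a comparison of directions across 2 slides, and the difference between the differences was not tested. Overexpression minus wild type was -0.31 log2 after and 0.15 before tMCAO for Lig1, 0.20 and -0.29 for Mcm5, 0.09 and -0.23 for Mcm6, 0.56 and -0.13 for Pola1, and -0.32 and 0.27 for Rpa2. None of these 5 genes passed the limma threshold in either comparison.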

How the results depend on the processing

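The count of members called in knock-down arrays after against before tMCAO (15) became 24 with every spot kept, 24 with normexp on the median signal (chosen after seeing the data), 9 in a fit of the 2 groups alone, and 4 to 14 when each array was left out; the median then ran from 0.75 to 1.05. The replicate block gave 14 members there, and 1 (Orc1, limma adjusted p = 0.0487) in overexpression against wild type after tMCAO, against 0 without it; that count ran from 0 to 1 over the arrays left out (Orc1 again without overexpression replicate 2, 0.00630; its adjusted p over all alternatives reached 0.943). The block changed no other comparison's count of members, and the numbers are not known to pair the arrays. With normexp the median was 0.16 for overexpression against wild type and 0.21 for overexpression against knock-down before tMCAO, and -0.079 for overexpression against wild type after it; with the mean over probes the second was 0.040. Leaving out arrays moved these medians between -0.023 and 0.101, between 0.062 and 0.214, and between 0.016 and 0.167, and the knock-down against wild type median between -0.135 and -0.062. Signs turned, none of them called, for Orc1 after tMCAO (-0.072) and Pola2 in overexpression against knock-down (0.10) with normexp, and when an array was left out for Uhrf1 (-0.49 to 0.28) and Mcm10 (-0.596 to 0.023) in overexpression against wild type before tMCAO, Pola2 (-0.88 to 0.24) and, after tMCAO, Tyms (-0.59 to 0.16). The causes were not tested. Counts in the 3 comparisons before tMCAO stayed at 0 in all alternatives run. Normexp on the mean signal was planned and not run; the median signal was used in its place. Dim probes, such as Orc1 and Pole2, limit what the arrays can show, as does the number of arrays.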
